A study of Mus musculus with 4 samples.

Results

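The enzymes that take glucose through glycolysis, the pentose phosphate pathway and the tricarboxylic acid (TCA) cycle were examined as 50 genes chosen by name, of 34844 gene names on the array. They were 24 glycolysis genes, 7 pentose phosphate genes and 19 genes of the pyruvate dehydrogenase complex and the TCA cycle. The glycolysis group also held glucose transporters, lactate dehydrogenases, the kinases that inhibit pyruvate dehydrogenase and the gluconeogenic enzyme Fbp1. Where a gene had several probes, the one of highest mean signal over the 4 arrays stood for it. All 50 genes, and all 72 of their probes, were well above background on all 4 arrays, against 61.6% of all genes.

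Gene expression was measured in mouse haematopoietic cells on 1-colour (Cy3) Agilent arrays, with 1 array for each of 4 groups. Wild-type (WT) or p38 alpha conditional knockout (cKO) donors, male C57BL/6J mice 10 weeks of age carrying Ly5.2, gave long-term stem cells (LT-HSC, sorted as CD34- Flt3- LSK) or multipotent progenitors (MPP, sorted as CD34+ Flt3+ LSK). LSK names the marrow fraction that lacks lineage markers and carries Sca-1 and Kit. In all 4 groups the sorted cells were labelled with the dye CFSE, injected into congenic Ly5.1 mice given 9.5 Gy, and sorted again as CFSE+ cells 16 h later. Every group is therefore one of transplanted cells, and no untransplanted cells were compared here. The Cre driver, the deleted exons and the number of mice per array are not given in the sources used here.

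Glycolysis splits glucose into pyruvate in the cytosol, and lactate dehydrogenase turns pyruvate into lactate. The pentose phosphate pathway branches off at glucose 6-phosphate: its oxidative part makes NADPH, and its non-oxidative part interconverts sugars and supplies the ribose phosphate from which purine nucleotides are built. Pyruvate dehydrogenase carries pyruvate into the mitochondrial TCA cycle, and its kinases (Pdk1 to Pdk4) switch it off. Quiescent stem cells are known for a metabolism that leans on glycolysis with pyruvate dehydrogenase held in check by these kinases. Cells that enter the cycle are known to use more mitochondrial oxidation. The study's title links p38 alpha to purine metabolism and the start of cycling, and the comparisons below show how the transcripts of the carbon pathways that feed it differed between genotypes and populations.

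Signals below are the scanner's processed intensities, in arbitrary units. A difference is on the log2 scale after each array was divided by its own 75th percentile, which lay between 178 and 218, so a raw signal can differ slightly from the scaled difference. A ± is the scanner software's error of that difference, with a median of 0.20 for these genes. It covers printing and scanning only. With 1 array per group no difference has a replicate check, and higher or lower means a difference of 1.5-fold or more, unless a value says otherwise. The arrays shared 1 slide and 1 scan, and 62.5% to 70.5% of their spots were well above background. The brighter of 2 probes for Mapk14, the gene of p38 alpha, read 1447 in WT LT-HSC, 912 in cKO LT-HSC, 951 in WT MPP and 1024 in cKO MPP. That is a cKO minus WT difference of -0.58 ± 0.20 in LT-HSC and 0.13 ± 0.20 in MPP, while the dimmer probe gave 0.13 ± 0.20 and -0.03 ± 0.20. Since the deleted exons are not known here, these probes cannot check the genotype labels, and cKO and WT mean the arrays so labelled. Transcripts of the sort markers Cd34 (1169, 3601, 7733 and 6331 on the WT LT-HSC, cKO LT-HSC, WT MPP and cKO MPP arrays) and Flt3 (177, 189, 515 and 365) were lower on both LT-HSC arrays than on both MPP arrays. Both were nonetheless well above background on the LT-HSC arrays. Cd34 was 1.70 higher in cKO than in WT LT-HSC, the largest such difference among 9 stem and progenitor genes. Between populations 8 of the 9 were measured. In WT 6 were lower and 1 higher in LT-HSC (median -0.90), against 32.6% and 16.5% of all genes. In cKO 2 were lower and 1 higher (median -0.15, and 0.03 with quantile normalization), against 19.6% and 13.6%. The higher gene was Ly6a in both (1.96 and 2.11).

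**Figure D1:**
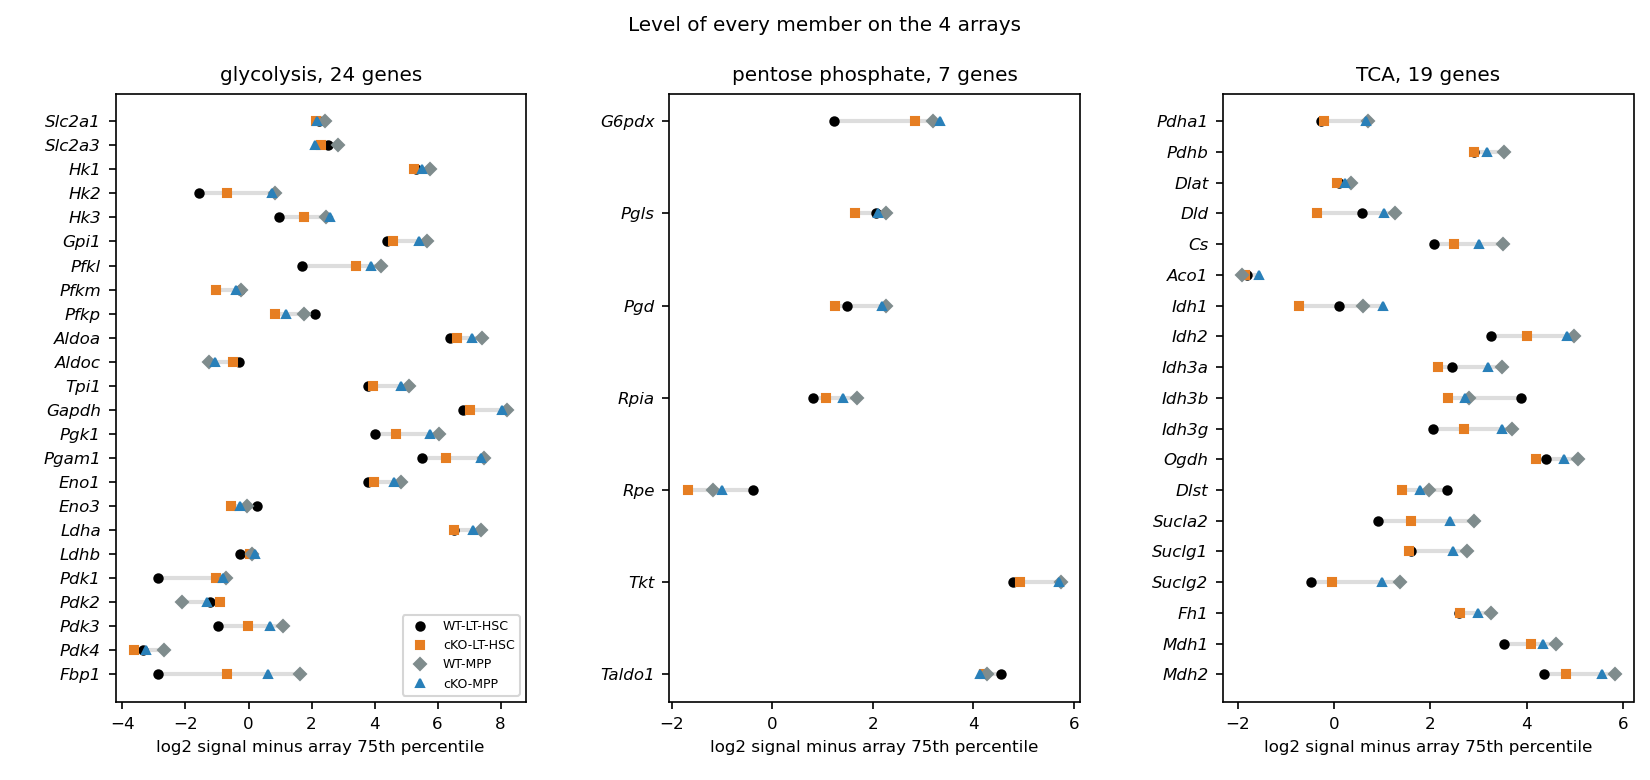
Each row is 1 gene and each symbol 1 array, placed by its log2 signal minus that array's 75th percentile (x axis), in a panel for each pathway. The WT MPP array (grey diamonds) was the highest of the 4 for 37 of the 50 genes, and the WT LT-HSC array (black circles) was the lowest for 27.

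The 4 arrays took different places. WT MPP was the highest array for 37 of the 50 genes (74.0%, against 36.1% of all genes measured on all 4 arrays). WT LT-HSC was the lowest for 27 (54.0%, against 40.9%) and cKO LT-HSC for 18 (36.0%, against 22.6%). An MPP array was therefore the lowest for 5 genes: Aldoc, Pdk2 and Aco1 on WT MPP, and Slc2a3 and Taldo1 on cKO MPP.

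Of these enzymes, 22 of 50 were lower in LT-HSC than in MPP by 1.5-fold or more in both genotypes (44.0%, against 12.9% of all genes). In WT cells 33 of the 50 genes were lower by 1.5-fold or more and 4 were higher, against 32.6% and 16.5% of all genes. In cKO cells 25 were lower and 0 higher, against 19.6% and 13.6%. Of the 5369 genes in the top quartile by mean signal, 2474 were lower and 561 higher in WT, and 1279 lower and 385 higher in cKO. The WT and cKO comparisons share no array. No gene was higher in both (0, against 6.47%). Under all 4 scalings tried, 14 of the 22 stayed lower by 1.5-fold in both genotypes: Hk2, Hk3, Tpi1, Gapdh, Pgk1, Pgam1, Fbp1, Pgd, Pdha1, Idh3a, Idh3g, Sucla2, Suclg1 and Suclg2. The share of all genes that did so under all 4 was not computed.

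The median difference between LT-HSC and MPP was -1.04 for glycolysis, -0.78 for the pentose phosphate genes and -0.98 for the TCA genes in WT cells, against -0.19 for all genes. In cKO cells the medians were -0.55, -0.50 and -0.74, against -0.09. Bright genes as a whole leaned the same way: the top quartile of genes by mean signal had medians of -0.50 in WT and -0.29 in cKO. Normalization choices moved the medians of all genes by up to 0.17 in WT and 0.11 in cKO. Quantile normalization brought the WT medians to -0.54, -0.43 and -0.64. The share of higher genes among all those past 1.5-fold was 33.6% in WT with the main scaling and 43.7% to 45.7% with the 3 other scalings. In cKO it was 40.9% with the main scaling and 43.7% to 53.3% with the others. The medians of all 3 pathways stayed below 0 under each of the 3 other scalings, in both genotypes.

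**Figure D2:**
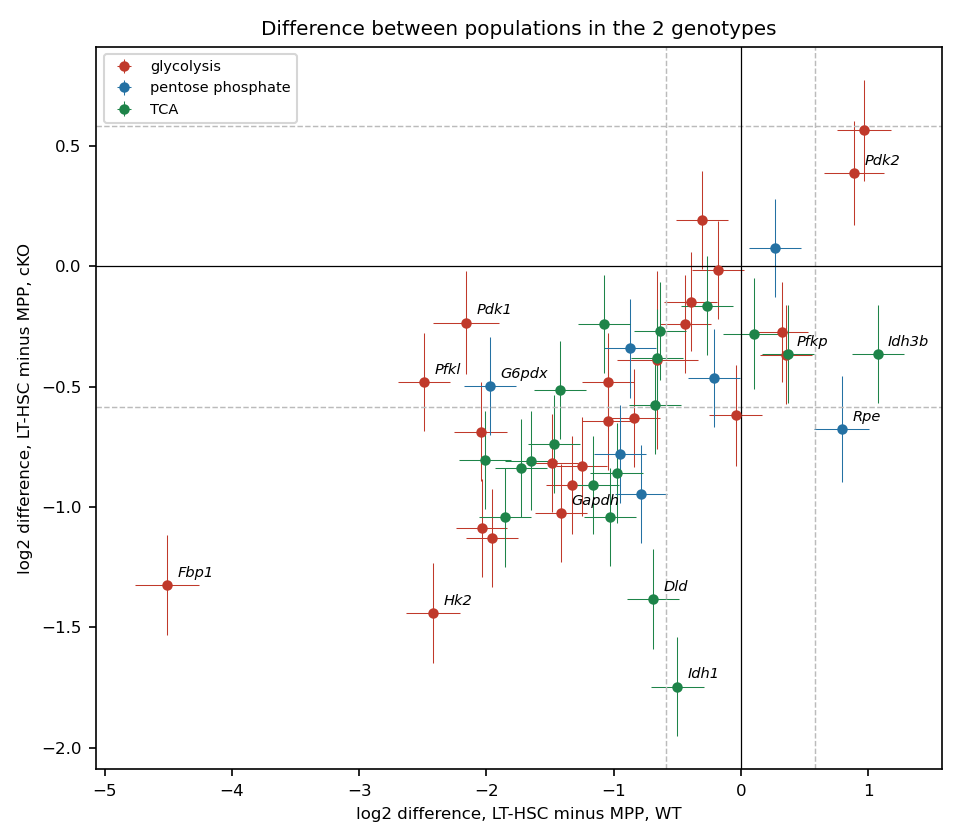
Each point is 1 gene: the log2 difference between LT-HSC and MPP in WT (x axis) and in cKO (y axis), with the scanner errors as bars and dashed lines at 1.5-fold. The lower left holds 22 of the 50 genes, lower in LT-HSC by 1.5-fold or more in both genotypes, and the upper right beyond the dashed lines holds 0.

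In glycolysis, 15 genes were lower and 2 higher in LT-HSC than in MPP in WT cells, and 12 were lower and 0 higher in cKO cells. Glucose uptake and the first step differed by isoform. Slc2a1 and Slc2a3, the main glucose transporters of blood cells, differed by less than 1.5-fold between the populations in both genotypes (-0.18 and -0.31 in WT, -0.01 and 0.19 in cKO). Hk2, the inducible hexokinase bound to mitochondria, read 72.0 on the WT LT-HSC array, 126 on cKO LT-HSC, 321 on WT MPP and 295 on cKO MPP. Both LT-HSC signals were below both MPP signals, with differences of -2.42 ± 0.21 in WT (-1.62 with normexp and quantile normalization) and -1.44 ± 0.21 in cKO. Hk3, another hexokinase of myeloid cells, was also lower in both (-1.48 and -0.82). The brightest probe of Hk1, the constitutive form, showed -0.43 and -0.24, but its placement is uncertain, as given below. Probes 2 and 3 of Hk1 gave -0.13 and -0.99 in WT, and -0.03 and -0.01 in cKO, so its WT difference depends on the probe.

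Phosphofructokinase, the committed step, has 3 subunit genes, and they did not move alike. Pfkl, the liver-type subunit, read 699.5 on WT LT-HSC, 2132 on cKO LT-HSC, 3275 on WT MPP and 2579 on cKO MPP. The WT LT-HSC array thus stood apart from the other 3, with a LT-HSC minus MPP difference of -2.49 ± 0.20 in WT and -0.48 ± 0.20 in cKO. The brighter probe of Pfkp, the platelet-type subunit, had its highest signal where Pfkl had its lowest: 926 on WT LT-HSC, against 360.5 on cKO LT-HSC, 603 on WT MPP and 403 on cKO MPP. The dimmer Pfkp probe read 252, 156, 322 and 231 in the same order and was highest on WT MPP, so this contrast rests on 1 probe. Pfkm, the muscle-type subunit, was within 1.5-fold between the populations in WT (-0.04) and lower in LT-HSC in cKO (-0.62). Fbp1, which runs the opposite reaction in gluconeogenesis, read 29.1 on WT LT-HSC, 125 on cKO LT-HSC, 554 on WT MPP and 270.3 on cKO MPP. That was a difference of -4.51 ± 0.25 in WT (22.8-fold lower) and -1.32 ± 0.21 in cKO (2.51-fold lower). With normexp and quantile normalization the WT difference was -2.77.

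The main forms of the enzymes that follow were lower in LT-HSC. Gpi1 (-1.25 in WT and -0.83 in cKO), Aldoa (-1.04 and -0.48), Tpi1 (-1.33 and -0.91), Gapdh (-1.41 and -1.03), Pgk1 (-2.04 and -1.09) and Eno1 (-1.05 and -0.64) were all lower, Aldoa by under 1.5-fold in cKO. Pgam1, the phosphoglycerate mutase of most tissues, read 9729 on WT LT-HSC, 15495 on cKO LT-HSC, 31444 on WT MPP and 29361 on cKO MPP, a difference of -1.95 ± 0.20 in WT and -1.13 ± 0.20 in cKO. Ldha, which makes lactate, read 19753 and 18420 on the WT and cKO LT-HSC arrays, and 29501 and 24666 on the WT and cKO MPP arrays. Its difference was -0.84 ± 0.20 in WT and -0.63 ± 0.20 in cKO. Other isoforms of these enzymes were mixed. Aldoc, the brain-type aldolase, was 0.97 higher in LT-HSC in WT and 0.56 higher in cKO. Eno3, the muscle-type enolase, differed by 0.32 and -0.27, and Ldhb by -0.39 and -0.15.

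The pyruvate dehydrogenase kinases were split. Pdk1 read 29.2 on WT LT-HSC and 98.3 to 109 on the other 3 arrays. It was low on the WT LT-HSC array only, with a LT-HSC minus MPP difference of -2.16 ± 0.26 in WT (-0.996 with normexp and quantile normalization) and -0.23 ± 0.21 in cKO. Pdk3 was lower in LT-HSC in both genotypes (-2.05 and -0.69). Pdk4 was the dimmest gene of the group, at 16.3 to 27.8. Its difference was -0.66 ± 0.32 in WT, and -0.17 with normexp and quantile normalization. The -0.39 ± 0.37 in cKO lies close to the scanner error. Pdk2 read 91.8 on WT LT-HSC, 107 on cKO LT-HSC, 41.3 on WT MPP and 70.9 on cKO MPP, so both LT-HSC signals were above both MPP signals (0.89 ± 0.24 in WT and 0.39 ± 0.21 in cKO). Its other probe gave -0.12 and -0.10, so the direction for Pdk2 rests on 1 probe.

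In the pentose phosphate pathway, 4 genes were lower and 1 higher in LT-HSC in WT cells, and 3 were lower and 0 higher in cKO cells. G6pdx, the X-linked glucose 6-phosphate dehydrogenase that opens the oxidative branch, read 499 on WT LT-HSC, 1450 on cKO LT-HSC, 1634 on WT MPP and 1772 on cKO MPP. The WT LT-HSC array alone was low, by -1.97 ± 0.20 against WT MPP, while cKO LT-HSC was -0.50 ± 0.20 from cKO MPP. Pgd, the second NADPH-making enzyme, read 597 and 478 on the WT and cKO LT-HSC arrays against 857 and 797 on the WT and cKO MPP arrays (-0.78 ± 0.20 and -0.95 ± 0.20). Pgls, the lactonase between them, differed by -0.21 and -0.46.

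The non-oxidative branch was mixed. Tkt, transketolase, read 5917 and 6150 on the WT and cKO LT-HSC arrays against 9560 and 9145 on the WT and cKO MPP arrays, and was lower in both genotypes (-0.95 ± 0.20 and -0.78 ± 0.20). Rpia, which makes ribose 5-phosphate, read 374.5, 425, 572 and 466 on the WT LT-HSC, cKO LT-HSC, WT MPP and cKO MPP arrays, for differences of -0.87 ± 0.20 in WT and -0.34 ± 0.20 in cKO. Taldo1, transaldolase, differed by 0.27 and 0.08. Rpe, the epimerase for ribulose 5-phosphate, read 164.5 on WT LT-HSC, 63.1 on cKO LT-HSC, 79.2 on WT MPP and 87.4 on cKO MPP. The LT-HSC minus MPP difference was thus 0.79 ± 0.22 in WT and -0.68 ± 0.22 in cKO.

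In the TCA group, 14 genes were lower and 1 higher in LT-HSC in WT cells, and 10 were lower and 0 higher in cKO cells. In cKO cells the 19 differences lay below 0 with the main scaling, from -0.16 for Dlat to -1.75 for Idh1, where 57.0% of all genes and 70.9% of the top quartile by signal did. Mdh1 turned to 0.03 with quantile normalization, with or without normexp. Of the pyruvate dehydrogenase complex, Pdha1, the X-linked catalytic subunit, was lower in both genotypes (-0.98 and -0.86), Pdhb showed -0.64 and -0.27, and Dlat -0.26 and -0.16. Dld, the dehydrogenase that this complex shares with that of Ogdh, read 319 on WT LT-HSC, 159 on cKO LT-HSC, 430 on WT MPP and 358 on cKO MPP, so cKO LT-HSC was the lowest array. Its differences were -0.69 ± 0.20 in WT and -1.38 ± 0.21 in cKO.

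Around the cycle, Cs, citrate synthase and the entry enzyme, read 906 on WT LT-HSC, 1134 on cKO LT-HSC, 2023 on WT MPP and 1402 on cKO MPP (-1.42 ± 0.20 in WT and -0.51 ± 0.20 in cKO). The succinyl-CoA synthetase subunits were lower in LT-HSC in both genotypes. Sucla2 read 399, 609, 1342 and 922 on the WT LT-HSC, cKO LT-HSC, WT MPP and cKO MPP arrays (-2.01 ± 0.20 in WT and -0.81 ± 0.20 in cKO). Suclg2 read 152, 195, 459 and 348 in the same order (-1.85 ± 0.21 and -1.04 ± 0.21), and Suclg1 showed -1.16 and -0.91. Idh2, the mitochondrial NADP-linked isocitrate dehydrogenase, was lower (-1.73 and -0.84), as was Mdh2, the mitochondrial malate dehydrogenase (-1.47 and -0.74). Mdh1, the cytosolic form, showed -1.08 and -0.24, and Fh1, fumarase, -0.66 and -0.38. Aco1, the cytosolic aconitase that also binds iron-responsive RNA elements, differed by 0.10 and -0.28.

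The NAD-linked isocitrate dehydrogenase is built from Idh3a, Idh3b and Idh3g, and its subunits did not follow one another. Idh3a, the catalytic subunit, read 1169 and 904 on the WT and cKO LT-HSC arrays against 1988 and 1611 on the WT and cKO MPP arrays (-1.03 ± 0.20 and -1.04 ± 0.20). Idh3g was lower too (-1.65 and -0.81). Idh3b read 3131 on WT LT-HSC, against 1035 on cKO LT-HSC, 1241 on WT MPP and 1154 on cKO MPP. Only the WT LT-HSC array was high, at 1.08 ± 0.20 above WT MPP, while cKO LT-HSC was -0.36 ± 0.20 from cKO MPP. Idh1, the cytosolic NADP-linked enzyme, read 230.3 on WT LT-HSC, 122 on cKO LT-HSC, 271.5 on WT MPP and 355.5 on cKO MPP, and had its larger difference in cKO (-1.75 ± 0.21, against -0.50 ± 0.21 in WT). Ogdh, the rate-controlling oxoglutarate dehydrogenase, read 4484 and 3707 on the WT and cKO LT-HSC arrays against 5975 and 4783 on the WT and cKO MPP arrays (-0.67 ± 0.20 and -0.58 ± 0.20). Dlst, the middle enzyme of that complex, read 1086, 540, 702 and 601 on the WT LT-HSC, cKO LT-HSC, WT MPP and cKO MPP arrays (0.37 ± 0.20 and -0.36 ± 0.20).

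Between genotypes, the differences in LT-HSC were larger than in MPP and ran both ways. In LT-HSC 12 of the 50 genes were higher in cKO by 1.5-fold or more and 8 were lower, against 18.8% and 15.0% of all genes, so both shares lie near the background. In MPP 1 gene was higher and 2 were lower, against 6.67% and 7.56%. No gene passed 1.5-fold in the same direction in both populations (0 lower and 0 higher, against 1.8% of all genes each). Each cKO minus WT comparison shares 1 array with each LT-HSC minus MPP comparison. The low WT LT-HSC signals of Fbp1, Pdk1, Pfkl and G6pdx therefore enter both, and the 2 kinds of difference are not independent.

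**Figure D3:**
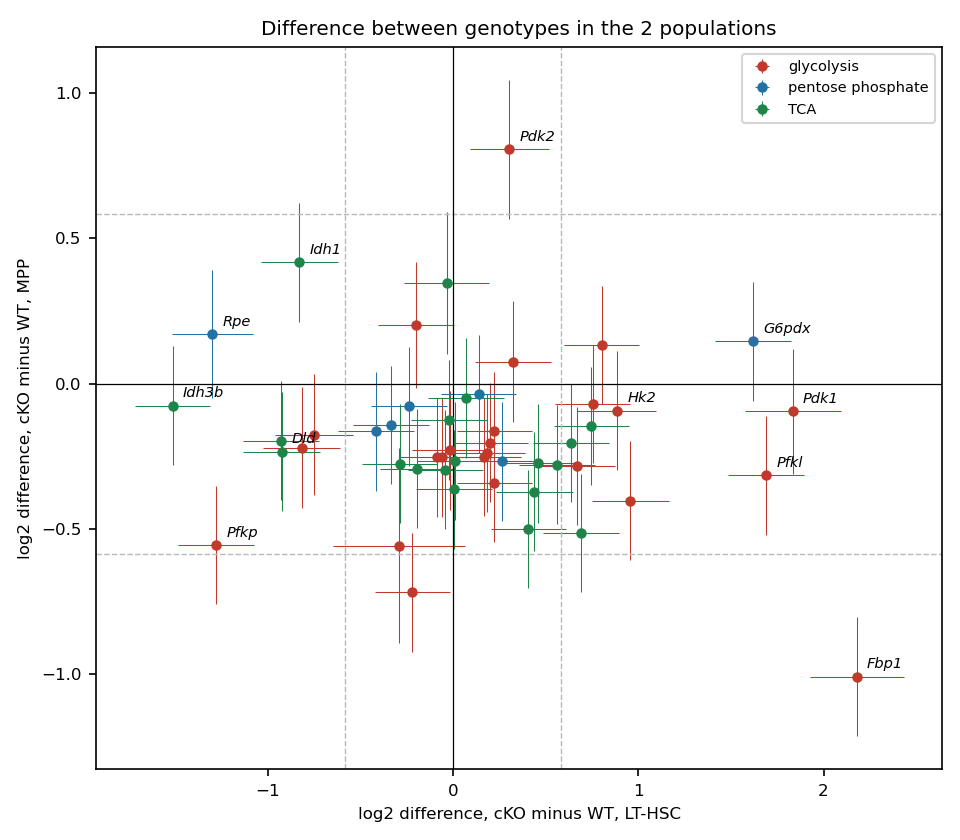
Each point is 1 gene: the log2 difference cKO minus WT in LT-HSC (x axis) and in MPP (y axis), with scanner errors as bars and dashed lines at 1.5-fold. The points spread from -1.51 to 2.18 in LT-HSC and from -1.01 to 0.81 in MPP, and 0 genes lie beyond the dashed lines in the same direction in both.

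In LT-HSC, 8 glycolysis genes were higher in cKO and 3 lower, with a median of 0.21 against 0.10 for all genes. Fbp1 showed the largest difference (2.18 ± 0.25, 4.53-fold), followed by Pdk1 (1.83 ± 0.26) and Pfkl (1.69 ± 0.20). With normexp and quantile normalization this order turned, at 0.97 for Fbp1, 0.73 for Pdk1 and 1.65 for Pfkl. Hk2 (0.88), Hk3 (0.80), Pgk1 (0.67), Pgam1 (0.75) and Pdk3 (0.96) were the other higher genes. The lower genes were Pfkp (-1.28 ± 0.20), Pfkm (-0.75) and Eno3 (-0.82). The phosphofructokinase subunits thus differed in opposite directions, with Pfkl higher and Pfkp and Pfkm lower. The remaining 13 glycolysis genes lay between -0.29 for Pdk4 and 0.32 for Ldhb.

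In MPP the glycolysis median was -0.23, against -0.06 for all genes, and 20 of the 24 differences were below 0, as were 56.5% of all genes and 68.7% of the top quartile by signal. The median was -0.14 with quantile normalization and -0.11 with normexp and quantile normalization. Fbp1 was lower in cKO (-1.01 ± 0.20), opposite to its difference in LT-HSC. Slc2a3, the high-affinity glucose transporter, was lower too (-0.72 ± 0.20), at 1236 on WT LT-HSC, 1002 on cKO LT-HSC, 1275 on WT MPP and 760.0 on cKO MPP. Pdk2 was the higher gene (0.81 ± 0.24), with 0.35 at its other probe. Of these 3 genes, Fbp1 passed 1.5-fold under all 4 scalings. Pfkp fell short of 1.5-fold, at -0.55 ± 0.20.

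Of the pentose phosphate genes in LT-HSC, G6pdx was higher in cKO (1.62 ± 0.20) and Rpe lower (-1.30 ± 0.22), and the other 5 lay between -0.42 for Pgls and 0.26 for Rpia. In MPP 0 of the 7 passed 1.5-fold, and the range was -0.27 for Rpia to 0.17 for Rpe. The medians were -0.24 in LT-HSC and -0.08 in MPP, the latter turning to 0.02 with quantile normalization.

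Of the TCA genes in LT-HSC, Idh2 (0.75), Idh3g (0.64) and Sucla2 (0.69) were higher in cKO, and Idh3b (-1.51 ± 0.20), Dlst (-0.93 ± 0.20), Dld (-0.93 ± 0.21) and Idh1 (-0.83 ± 0.21) were lower. Dlst and Dld belong to the oxoglutarate dehydrogenase complex, whose first component Ogdh differed by -0.19 ± 0.20. The 3 Idh3 subunits again went apart, with Idh3a at -0.29. The median was 0.00, and -0.01 with quantile normalization. In MPP 0 of the 19 passed 1.5-fold. Their median was -0.27, with Sucla2 (-0.51 ± 0.20) and Cs (-0.50 ± 0.20) the lowest and Idh1 (0.42 ± 0.21) the highest.

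For 11 of the 50 genes more than 1 probe could be compared, and the probes of some did not agree. The 8 Gapdh probes were of 1 sign in each comparison, although the array file places probes 2, 5 and 7 by signal on chromosomes 8, X and 7 and not on 6 with the gene. Over all 8, the cKO minus WT difference in LT-HSC ran from 0.22 to 0.79. The probes below lie nearer the 5′ end of the gene than its brightest one. They are printed because they gave the larger differences. Probe 4 lies at chr6:125113312-125113371 on the minus strand of mm9, probe 6 at chr6:125113229-125113288 and probe 3 at chr6:125112979-125113038.
Gapdh, probe 4 by signal: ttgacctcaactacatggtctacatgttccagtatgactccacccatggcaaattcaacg
Gapdh, probe 6 by signal: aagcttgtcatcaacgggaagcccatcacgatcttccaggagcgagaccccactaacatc
Gapdh, probe 3 by signal: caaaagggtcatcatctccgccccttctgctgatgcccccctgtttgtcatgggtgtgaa
Their cKO minus WT differences in LT-HSC were 0.76, 0.79 and 0.49, in the order printed, against 0.22 at the brightest probe. In WT cells the LT-HSC minus MPP difference was -1.86, -1.93 and -1.73, against -1.41 at the brightest. In cKO cells it was -0.91, -0.86 and -0.94, against -1.03, so there the brightest probe gave the larger difference.

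Ldha had larger differences between populations toward its 5′ end in both genotypes. Its probes at chr7:54103010-54103069 and chr7:54107294-54107353 (plus strand, mm9) lie 7927 and 3643 bases before the brightest probe.
Ldha, probe 3 by signal: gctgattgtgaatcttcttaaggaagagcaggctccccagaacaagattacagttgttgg
Ldha, probe 2 by signal: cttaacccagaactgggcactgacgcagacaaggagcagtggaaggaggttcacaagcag
The LT-HSC minus MPP difference in WT was -1.62 at probe 3, -1.10 at probe 2 and -0.84 at the brightest probe, and in cKO it was -1.10, -0.87 and -0.63. Over 4561 genes with probes at least 200 bases apart, the 5′ minus 3′ difference of this comparison had a median of -0.05 in WT and 0.00 in cKO, with interquartile ranges of -0.72 to 0.64 and -0.47 to 0.45. Differences of either sign between the ends of a gene were thus common on the array.

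Probes of 3 genes lower in cKO LT-HSC are printed: Idh3b for its lowest difference, and Pfkp and Dld because their other probe gave a smaller one. Idh3b had 1 probe, at chr2:130106776-130106835 (minus strand, mm9). The brighter Pfkp probe is placed on chr13:6581718-6583872, a span longer than the probe, and the brighter Dld probe at chr12:32018291-32018350 (both minus strand).
Idh3b: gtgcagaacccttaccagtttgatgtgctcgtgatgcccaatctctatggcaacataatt
Pfkp: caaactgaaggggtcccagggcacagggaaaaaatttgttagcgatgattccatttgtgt
Dld: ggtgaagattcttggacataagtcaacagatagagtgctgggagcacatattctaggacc
The dimmer Pfkp probe gave -0.61 in LT-HSC and -0.45 in MPP between genotypes, the same direction at a smaller size. Between populations in WT it gave -0.61 where the brighter probe gave 0.36. The dimmer Dld probe gave -0.19 between genotypes in LT-HSC, so the lower call for Dld rests on the brighter probe, whereas its LT-HSC minus MPP differences (-1.06 in WT and -1.31 in cKO) had the same sign at both.

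For 3 genes the array file places the brightest probe on a chromosome other than the gene's own. The Hk1 probe is placed on chromosome 5 (gene on 10), the Pgk1 probe on chromosome 3 (gene on X) and the Eno1 probe on chromosome 2 (gene on 4), so these signals may include near-identical copies and are uncertain. A stretch of each is printed, with AATAAA, the signal for polyadenylation, in capitals where present.
Hk1, chr5:22118404-22118463: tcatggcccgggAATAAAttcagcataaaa
Eno1, chr2:80678866-80678925: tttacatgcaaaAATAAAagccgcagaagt
Pgk1, chr3:57906830-57906894: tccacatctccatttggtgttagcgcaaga
Hk1 also had 2 probes on its own chromosome. Probe 3, at chr10:61732717-61732776 (minus strand), differed from the brightest.
Hk1, probe 3 by signal: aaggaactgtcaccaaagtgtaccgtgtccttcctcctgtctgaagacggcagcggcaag
It read 718 on WT LT-HSC, 1303 on cKO LT-HSC, 1191 on WT MPP and 1133 on cKO MPP, a cKO minus WT difference of 0.94 in LT-HSC, against -0.06 and 0.07 at the other probes. Without Hk1, Pgk1 and Eno1 the glycolysis medians were -1.04 and -0.48 between populations in WT and cKO, and 0.22 and -0.23 between genotypes in LT-HSC and MPP.

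**Figure D4:**
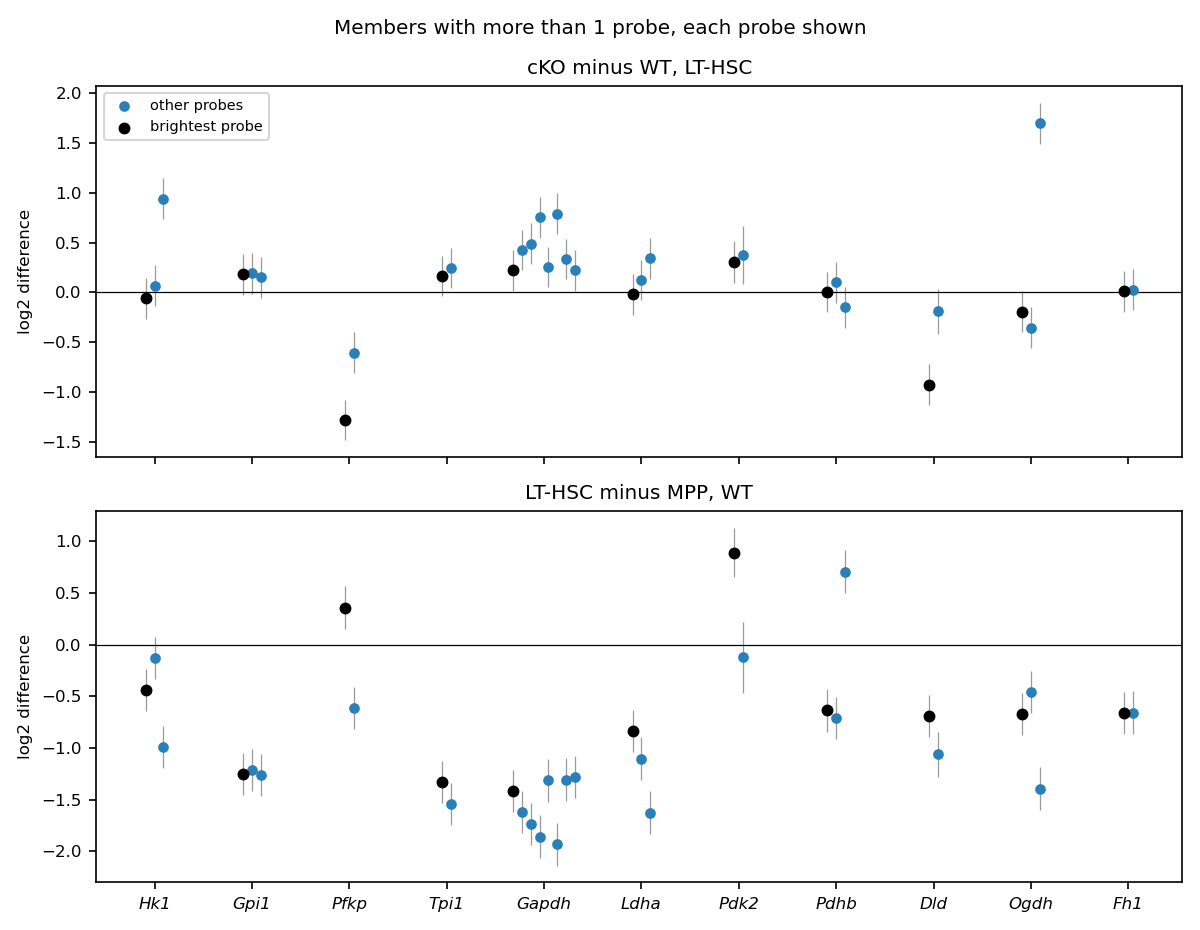
The log2 difference (y axis) at each probe of the 11 genes with more than 1 probe, for cKO minus WT in LT-HSC (top) and LT-HSC minus MPP in WT (bottom), with the scanner error as bars. Gapdh's 8 probes share a sign in both panels, while probe 3 of Ogdh (1.70 in the top panel) and probe 3 of Pdhb (0.71 in the bottom panel) lie on the other side of 0 from the brightest probe.

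Probe 3 of Ogdh, the dimmest, read 170.3 on WT LT-HSC, 523 on cKO LT-HSC, 374 on WT MPP and 421 on cKO MPP. Its cKO minus WT difference in LT-HSC was 1.70, against -0.19 and -0.35 at the 2 brighter probes. Probe 3 of Pdhb was 0.71 higher in LT-HSC in WT and 0.78 higher in cKO, where its other probes gave -0.64 and -0.71 in WT. Gpi1, Tpi1 and Fh1 had probes that shared a sign in every comparison. The Gpi1 probes lie within 5 bases of one another and overlap almost fully, so their agreement is no separate check.

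A fit across 25844 genes asked which differences were shared by both genotypes or both populations (limma, additive in genotype and population, 1 residual degree of freedom). Between populations 0 of the 50 genes passed an adjusted p of 0.05, as did 0.0% of all genes, and 20 (15.7% of all genes did) had an unadjusted p under 0.05, all lower in LT-HSC. That number was 11 with quantile normalization (14.6% of all genes), and 16 with the percentile over bright probes (15% of all genes), of which 15 were lower in LT-HSC. Hk2 had the lowest adjusted p by limma, 0.266, for a shared difference of -1.93, followed by Pgam1 at 0.28 for -1.54. Between genotypes 0 of the 50 genes passed, and 0 had an unadjusted p under 0.05 (3.58% of all genes did). The lowest adjusted p by limma was 0.974. In simulated data of this design, the fit called 0% of planted genotype differences of 1, 2, 3 or 4 (log2, 50 genes each) after adjustment. The unadjusted p by limma was under 0.05 for 48%, 94%, 100% and 98% of them, in that order. A genotype call after adjustment was thus hardly possible in that simulation, so 0 calls do not show that a difference is absent. The planted differences were shared by both populations, so differences in 1 population were not covered. The term for populations was not simulated, and its 0 calls do not show absence either.

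Other genes of the same pathways were 50 by name, of which 49 were found on the array, with 35 to 39 measured in each comparison. In WT cells 17 of 35 were lower in LT-HSC by 1.5-fold or more and 4 were higher, and in cKO 9 of 39 were lower and 4 higher, against the 32.6% and 16.5% of all genes in WT and 19.6% and 13.6% in cKO given above. The share lower in cKO lies near the background. The pyruvate kinase gene Pkm, under its older name Pkm2 on the array, read 6483 on WT LT-HSC, 5849 on cKO LT-HSC, 12235 on WT MPP and 9723 on cKO MPP (-1.18 in WT and -0.94 in cKO). This gene was named after its values were seen. Between genotypes 9 of 39 were higher and 5 lower in cKO LT-HSC, and 3 of 36 were higher and 4 lower in cKO MPP, where 18.8% and 15.0% of all genes were in LT-HSC and 6.67% and 7.56% in MPP. In LT-HSC the named extremes included Pdp1, the phosphatase that switches pyruvate dehydrogenase on (2.05), and Pklr, the liver and red cell pyruvate kinase (-2.65). Pdp1 read 35.1 on WT LT-HSC, 137 on cKO LT-HSC, 229 on WT MPP and 208.5 on cKO MPP. The low array was thus the same as for Pdk1, which encodes an enzyme of the opposite action.

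Markers of other cells moved with some of these comparisons. The summed signal of 8 B cell genes, each relative to the array's 75th percentile, was 61.0 on WT LT-HSC, 22.5 on cKO LT-HSC, 2.34 on WT MPP and 1.72 on cKO MPP, and all 8 were well above background on both LT-HSC arrays. The 6 stromal genes summed to 33.4 on WT LT-HSC and to 2.90 to 3.46 on the other 3 arrays, with Cxcl12 at 5118 against 94.9 to 199.9. The 8 macrophage genes summed to 9.16 and 7.02 on the WT and cKO LT-HSC arrays, 26.3 on WT MPP and 74.6 on cKO MPP. The 8 neutrophil granule genes summed to 206 and 250.3 on the WT and cKO LT-HSC arrays against 152.5 and 193 on the WT and cKO MPP arrays. Their median differences between populations were 1.27 in WT and 1.03 in cKO, and the cKO minus WT median in MPP was 0.72. They did not all move alike. In WT 5 were higher and 2 lower in LT-HSC, against 16.5% and 32.6% of all genes. In cKO 6 were higher and 2 lower, against 13.6% and 19.6%. Mpo was the lowest in both (-2.17 and -1.53). The 7 erythroid genes summed to 717 and 776 on the WT and cKO LT-HSC arrays against 780 and 856.5 on the WT and cKO MPP arrays. Between populations 6 were measured, with median differences of 1.32 in WT and 0.16 in cKO. Of these, 1 in WT and 3 in cKO lay below 0, against 59.4% and 57.0% of all genes. The lowest were Hemgn in WT (-0.15) and Slc4a1 in cKO (-1.12). Car1 was the highest in both (5.68 and 4.37). It read 2147 and 1338 on the WT and cKO LT-HSC arrays against 34.9 and 56.1 on the WT and cKO MPP arrays. Sums over 6 T and NK cell genes ran from 31.4 to 34.6. All 6 were well above background on both LT-HSC arrays, against 3 on WT MPP and 4 on cKO MPP. In WT the 3 genes measured between populations had a median of 0.68, from -0.63 for Nkg7 to 2.27 for Cd3e. In cKO the 4 measured had a median of 1.07, from -0.25 for Nkg7 to 4.10 for Cd3d. Sums over 5 muscle genes were 3.27 on WT LT-HSC and 0.754 to 0.926 elsewhere. The 10 genes of the G2/M phase summed to 26.6 and 34.6 on the WT and cKO LT-HSC arrays against 68.9 and 63.8 on the WT and cKO MPP arrays. Their median differences of -1.79 in WT and -1.19 in cKO between populations were larger than those of any of the 3 pathways. The 10 housekeeping genes had medians of -0.80 in WT and -0.56 in cKO between populations, and of -0.29 and -0.22 with quantile normalization. With the main scaling these lay past the pentose phosphate medians (-0.78 and -0.50) and the glycolysis median in cKO (-0.55). With quantile normalization they were smaller than the medians of all 3 pathways in both genotypes. The part of these cells and cycle genes in the pathway differences was not tested. In bulk samples, fewer cells of a type and less RNA per cell cannot be told apart.

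Promoter windows from RefSeq (GRCm38.p6, 250 bases before to 50 after the start) were found for 48 of the 50 genes. CACGTG, the palindromic E-box known to be bound by Myc and MiT family factors, was searched with ACGTG, the core of the hypoxia response element, on both strands, and every E-box match also holds that core. The E-box was present in 4 of 48 genes (8.33%, against 8.09% of all gene symbols and 7.15% of all windows): Pfkm, Ldha, Pdk2 and Ogdh. The hypoxia core was present in 18 of 48 (37.5%, against 21.8% of all symbols and 19.6% of all windows), made up of 13 of 23 glycolysis genes (56.5%), 1 of 7 pentose phosphate genes and 4 of 18 TCA genes. Among the genes lower in LT-HSC in both genotypes 8 of 21 held the core (38.1%), and among the others 10 of 27 (37.0%), so the shares were alike. Hk2, Pgk1 and Ldha, all lower in LT-HSC in both genotypes, are printed over the 250 bases before the start, with the hypoxia core in either orientation and the E-box in capitals.
Hk2, chr6:82774455-82774704, minus strand: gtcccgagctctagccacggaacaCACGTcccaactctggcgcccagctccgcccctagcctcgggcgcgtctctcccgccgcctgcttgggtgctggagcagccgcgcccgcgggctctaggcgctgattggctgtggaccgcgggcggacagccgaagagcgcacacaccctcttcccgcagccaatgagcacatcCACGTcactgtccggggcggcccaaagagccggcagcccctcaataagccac
Pgk1, chrX:106186850-106187099, plus strand: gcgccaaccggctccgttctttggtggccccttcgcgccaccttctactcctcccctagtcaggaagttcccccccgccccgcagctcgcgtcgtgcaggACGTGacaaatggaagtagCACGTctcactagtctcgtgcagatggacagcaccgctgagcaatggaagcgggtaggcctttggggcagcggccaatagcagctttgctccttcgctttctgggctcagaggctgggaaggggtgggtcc
Ldha, chr7:46845554-46845803, plus strand: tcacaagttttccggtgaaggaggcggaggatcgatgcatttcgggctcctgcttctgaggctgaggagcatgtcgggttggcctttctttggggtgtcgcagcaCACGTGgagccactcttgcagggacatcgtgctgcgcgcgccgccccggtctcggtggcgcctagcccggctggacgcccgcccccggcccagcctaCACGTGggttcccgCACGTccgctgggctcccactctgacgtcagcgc
Hk2 holds CACGT, the core read on the other strand, at 226 and 52 bases before the start. Ldha holds the E-box at 145 and 48 bases before it and the reversed core at 34. Pgk1 holds the core at 150 and its reverse at 131. G6pdx, the pentose phosphate gene with a match, has ACGTG in the transcribed part of the window. A match describes these letters and shows no binding.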

How the data were processed

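Expression was measured on 4 one-colour Agilent arrays (probe coordinates on mm9). The authors' deposited scanner tables give spot intensity on a linear scale, background-subtracted and spatially detrended, per the file headers (Agilent Feature Extraction 10.7.3.1; the submitters' processing notes give 9.5.3). Flags for background and outliers are scores of 0 or 1, per the file headers. The authors' deposited series table holds a ratio per probe; its differences between arrays lay within 0.02 (log2) of those of the main scaling, and the rule behind its scaling is not given in the sources used here.

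Outlier spots (137 to 151 per array) were dropped, log2 values averaged per probe, and each array's 75th percentile (all probes but controls) subtracted. Genes were compared where well above background on both arrays. Medians and counts at 1.5-fold describe lists. The additive model was fitted with limma 3.58.1 (R 4.3.3) with Benjamini-Hochberg adjustment over all genes measured on at least 2 arrays. On simulated data it called 0% of the planted genotype differences after adjustment. The number of arrays limits the precision.

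Full signals are given for the 3 glycolysis, 2 pentose phosphate and 2 TCA genes with the largest difference in each comparison and for Hk2, Pfkp, Ldha, Pdk1, G6pdx, Tkt, Cs, Idh3a and Ogdh. The members and lists were chosen with earlier results of these data known. RefSeq promoter windows matched 48 of 50 genes. Alternatives were other scalings, probe choices, thresholds and background filters.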

Additional observations from a re-analysis of the deposited data

Results flagged for a closer look

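With 1 array per group, outliers within a group could not be sought. The direction differed between the compared groups, past 1.5-fold on both sides, for 2 of the 50 genes, and neither difference between effects was tested. Fbp1 was 2.18 higher in cKO than in WT in LT-HSC and -1.01 lower in MPP. Rpe was 0.79 higher in LT-HSC than in MPP in WT and -0.68 lower in cKO; with normexp and quantile normalization the WT value was 0.50 and the cKO value -0.41, both under 1.5-fold.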

How the results depend on the processing

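No paired analysis was possible because each group has 1 array. No array could be left out for the same reason. Of 88 alternative medians, 9 moved by more than the scanner error of a single gene, a coarse measure for a median. All 9 came with quantile normalization, with or without normexp. Many of the 88 could not move. The background filters changed nothing, since all 50 genes were well above background on all 4 arrays. The series table follows the main scaling, and the pentose phosphate genes had 1 probe each. The number 9 of 88 is therefore no measure of stability. With normexp and quantile normalization the LT-HSC minus MPP medians in WT were -0.51 (glycolysis), -0.39 (pentose phosphate) and -0.66 (TCA), and with quantile normalization alone -0.54, -0.43 and -0.64. In cKO normexp with quantile normalization gave -0.32 for glycolysis and -0.41 for TCA, and quantile normalization alone gave -0.41 for TCA. Among smaller moves, the cKO minus WT medians went from 0.21 to 0.12 (glycolysis, LT-HSC), from -0.23 to -0.14 (glycolysis, MPP) and from -0.27 to -0.14 (TCA, MPP) with quantile normalization, and those of the pentose phosphate genes in MPP (0.02) and the TCA genes in LT-HSC (-0.01) turned sign. The cause was not tested. The genes lower in both genotypes numbered 22 with the main scaling and 18, 15 and 16 with the percentile over bright probes, normexp and quantile, and quantile normalization. The share of all genes lower in both was not computed for the 3 other scalings. In WT alone 28, 24 and 25 genes were lower under them, in that order, against 26.7%, 17.4% and 24.8% of all genes. In cKO alone 20, 17 and 19 were lower, against 14.7%, 9.33% and 17.7%. Of the 20, 3, 37 and 25 genes past 1.5-fold in the LT-HSC and MPP genotype and the WT and cKO population comparisons, 18, 1, 26 and 16 stayed past it under all 4 scalings, and 0 turned sign. The share of all genes that stayed past it was not computed. At 2-fold, 4 genes were higher and 3 lower in cKO LT-HSC, 0 and 1 in cKO MPP, 1 and 23 in WT LT-HSC against MPP, and 0 and 9 in cKO. Of all genes, 9.07% were higher and 8.04% lower by 2-fold in cKO LT-HSC, 1.8% and 1.9% in cKO MPP, 9.31% and 18.2% in WT LT-HSC against MPP, and 6.75% and 6.52% in cKO. The other Pdk2 probe (-0.12) and probe 3 of Pdhb (0.71) reversed the LT-HSC minus MPP difference in WT. Normexp with quantile normalization left 0 higher and 1 lower in cKO MPP (2.0% and 1.7% of all genes), and quantile normalization 1 lower (7.02%). Between populations the additive fit called 57 of all genes with normexp and quantile normalization. It called 47 over genes measured on all 4 arrays, against 0 in the main fit with 4047 unadjusted. Dim genes such as Pdk4, Pdk1 in WT LT-HSC and Fbp1 there are the least precise.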
